A study of Caenorhabditis elegans with 2 samples.

Results

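The genes that encode the histones of Caenorhabditis elegans were examined for binding of GRH-1, the worm's Grainyhead-type transcription factor. They were taken as every protein-coding gene on chromosomes I to V and X whose name in Ensembl starts with his-, which gave 72 of 19973 genes. Their types, from the product names in RefSeq, were 1 linker histone H1, 17 H2A, 16 H2B, 15 H3, 5 H3.3, 16 H4 and 2 genes known only by a histone domain. Binding was measured by ChIP-seq, the sequencing of DNA that is precipitated with a protein, in 1 group of 2 biological replicates. The animals were whole L1 larvae of strain RW12208, genotype st12208[grh-1::TY1::EGFP::3xFLAG] I, made by CRISPR, starved after bleaching and 6 h old, and the antibody was directed at GFP. All values therefore describe the tagged fusion protein, without a resolution of tissues within the larva, and no untagged or unstarved animals were analysed here. With 1 group no test between conditions was made.

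The irreproducible discovery rate (IDR) measures how well repeated rankings of peaks agree. The main list was the authors' list of 2470 peaks from both replicates together that passed their limit on it. A gene had a promoter summit if the highest point of such a peak fell between 1000 bp before and 200 bp after a transcript's 5′ end. The signal value of a peak is the authors' score of its height; it orders the peaks within 1 list, and no scale is given for it. No read numbers were at hand, so the depth is unknown. The 95% Wilson intervals on shares of genes cover counting error only. Neighbouring histone genes share summits, so the genes are not independent of each other.

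Histones package DNA into nucleosomes. A core of H2A, H2B, H3 and H4 is wrapped by DNA, and the linker histone H1 binds where the DNA enters and leaves the core. The core histones of replicating cells come from many near-identical genes, which in worms lie in clusters of divergent pairs, H2A beside H2B and H3 beside H4, each pair reading away from 1 short shared upstream region. Their mRNAs end in a conserved stem-loop in place of a poly(A) tail. The variant H3.3 can be deposited outside DNA replication. Grainyhead proteins are known for their roles in the epidermis and other epithelia, and in other animals they recognise sites of the form AACCGGTT.

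A summit of the pooled list lay in the promoter window of 17 of the 72 histone genes (23.6%, 15.3 to 34.6), against 1629 of all 19973 protein-coding genes (8.16%). The 17 genes were served by 10 summits. Between 7 divergent pairs lay 1 summit each, and the H4 gene his-37, the H1 gene his-24 and the H3.3 gene his-72 had 1 summit each of their own. These were H1 in 1 of 1 gene, H2A in 4 of 17, H2B in 3 of 16, H3 in 3 of 15, H3.3 in 1 of 5 and H4 in 5 of 16. Neither of the genes with only a histone domain, his-39 and his-73, had one. Giving each summit to 1 gene, that of the closest 5′ end, left 10 histone genes (13.9%), against 6.15% of all genes.

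The sequences of 3 histone pairs with a summit and of 4 pairs that resemble them without one carry most of what follows. Each is the whole stretch between the 5′ ends of the pair on build ce11, read from the RefSeq assembly on the + strand, 5′ to 3′. Capitals mark 3 words on either strand: CTCCNCC, the TATA-type word TATAAA, and the octamer GGACACAT (ATGTGTCC on the other strand). The first 3 lines are H3 and H4 pairs of chromosome V, of which only his-6 and his-5 had a summit.
his-6 and his-5, chrV:8534978-8535213: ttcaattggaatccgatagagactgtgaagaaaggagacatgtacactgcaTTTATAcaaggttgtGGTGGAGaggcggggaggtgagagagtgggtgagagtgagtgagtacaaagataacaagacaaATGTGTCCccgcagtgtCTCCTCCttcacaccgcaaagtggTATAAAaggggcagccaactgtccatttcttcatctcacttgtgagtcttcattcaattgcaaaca
his-17 and his-18, chrV:8897993-8898227: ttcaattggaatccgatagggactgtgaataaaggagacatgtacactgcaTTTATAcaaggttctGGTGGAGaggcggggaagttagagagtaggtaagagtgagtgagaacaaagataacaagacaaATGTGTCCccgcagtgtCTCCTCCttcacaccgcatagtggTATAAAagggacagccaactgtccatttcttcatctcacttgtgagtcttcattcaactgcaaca
his-2 and his-1, chrV:16042284-16042519: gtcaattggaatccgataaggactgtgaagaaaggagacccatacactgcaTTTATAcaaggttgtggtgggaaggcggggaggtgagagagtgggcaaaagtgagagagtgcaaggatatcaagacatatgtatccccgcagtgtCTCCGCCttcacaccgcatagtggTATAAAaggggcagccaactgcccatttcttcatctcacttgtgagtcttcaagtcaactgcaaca
The next 2 lines are H2A and H2B pairs, of which his-4 and his-3 had a summit; the sequence between his-51 and his-52 stands 4 times in the genome.
his-4 and his-3, chrV:16040516-16040807: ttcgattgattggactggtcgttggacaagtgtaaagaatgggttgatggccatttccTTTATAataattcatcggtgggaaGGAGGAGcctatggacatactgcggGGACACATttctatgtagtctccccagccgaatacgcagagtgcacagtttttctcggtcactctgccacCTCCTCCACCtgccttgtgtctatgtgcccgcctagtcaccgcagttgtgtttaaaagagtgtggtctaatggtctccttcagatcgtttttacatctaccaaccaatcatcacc
his-51 and his-52, chrV:8850172-8850463: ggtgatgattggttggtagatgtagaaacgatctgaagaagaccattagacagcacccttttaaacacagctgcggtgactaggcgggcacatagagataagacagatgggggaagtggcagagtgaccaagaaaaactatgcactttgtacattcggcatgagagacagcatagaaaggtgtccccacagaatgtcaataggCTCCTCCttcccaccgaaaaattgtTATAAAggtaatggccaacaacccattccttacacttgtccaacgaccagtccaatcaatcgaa
The last 2 lines of pairs are H3 and H4 pairs on chromosome IV, of which his-60 and his-59 had a summit.
his-60 and his-59, chrIV:7487993-7488248: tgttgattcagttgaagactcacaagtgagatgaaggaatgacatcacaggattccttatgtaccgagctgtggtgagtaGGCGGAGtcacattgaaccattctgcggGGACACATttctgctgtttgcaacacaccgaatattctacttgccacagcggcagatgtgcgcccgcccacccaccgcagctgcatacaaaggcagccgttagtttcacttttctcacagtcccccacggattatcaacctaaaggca
his-63 and his-64, chrIV:11406862-11407115: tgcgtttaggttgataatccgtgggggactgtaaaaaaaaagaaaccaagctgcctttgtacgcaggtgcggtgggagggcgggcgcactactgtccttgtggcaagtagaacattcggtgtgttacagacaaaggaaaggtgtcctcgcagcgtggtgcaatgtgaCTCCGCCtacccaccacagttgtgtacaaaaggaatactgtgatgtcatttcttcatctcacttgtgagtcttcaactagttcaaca
The 3 genes with a summit of their own follow, with the 200 bases before their 5′ ends, each read on the strand of its gene (the − strand for his-72).
his-37, chrV:9546905-9547104: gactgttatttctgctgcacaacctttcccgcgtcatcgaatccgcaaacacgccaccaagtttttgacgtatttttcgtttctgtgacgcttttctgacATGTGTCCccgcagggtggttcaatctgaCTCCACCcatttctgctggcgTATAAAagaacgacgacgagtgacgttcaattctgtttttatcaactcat
his-24, chrX:14489894-14490093: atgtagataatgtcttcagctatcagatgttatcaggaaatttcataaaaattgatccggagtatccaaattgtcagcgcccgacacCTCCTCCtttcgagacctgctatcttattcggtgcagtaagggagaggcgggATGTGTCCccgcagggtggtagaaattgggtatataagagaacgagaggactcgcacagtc
his-72, chrIII:12369051-12369250: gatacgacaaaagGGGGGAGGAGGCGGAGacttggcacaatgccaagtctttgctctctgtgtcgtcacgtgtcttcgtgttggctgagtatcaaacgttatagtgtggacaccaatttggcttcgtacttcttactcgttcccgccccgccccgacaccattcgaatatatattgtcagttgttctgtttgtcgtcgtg
In these lines his-6 and his-5, his-4 and his-3, his-60 and his-59, his-37 and his-24 hold the octamer in capitals, and so do his-17 and his-18, which had no summit. The upstream sequences of his-37 and his-24 shared an unbroken run of 20 bases that contains the octamer. That run stood in 3 of the 19973 promoters of all genes, of which his-37 and his-24 were 2.

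The strongest histone summit was that of his-37, an H4 gene with an intron that has no divergent partner. Its peak at chrV:9546889-9547158 had a pooled signal value of 944, rank 45 of 2470, with its summit 79 bp upstream of the 5′ end. The replicates' own signal values were 560 in replicate 1 (rank 40 of 1787) and 382 in replicate 2 (rank 58 of 1487). Both replicates thus placed it near the top of their lists.

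The H2A gene his-68 and the H4 gene his-67, a divergent pair of an unusual composition on chromosome I, shared a summit of almost the same height. The peak at chrI:9988858-9989134 had a signal value of 870 (rank 56), with 428 in replicate 1 and 445 in replicate 2. Its summit lay 125 bp upstream of his-68 and 244 bp upstream of his-67. It also lay in the window of alg-5, which encodes an Argonaute protein, 795 bp upstream of that gene's 5′ end.

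Among the H3 and H4 pairs, his-6 and his-5 stood highest. Their shared peak at chrV:8534985-8535187 had a signal value of 356 (rank 319), with 173 in replicate 1 and 178 in replicate 2, and the summit was 96 bp from his-6 and 141 bp from his-5. The H3 gene his-59 and the H4 gene his-60 shared a peak of 121 (rank 1301) at chrIV:7487956-7488299. Replicate 1 listed it at 77.4, whereas replicate 2 held it only in its ranked list, the list before the IDR limit, at 39.5. The H4 gene his-31 and the H3 gene his-32 likewise had a peak of 86.2 (rank 1943) at chrIV:8333909-8334252, with 62.1 in replicate 1 and 32.3 in the ranked list of replicate 2. Of these 3 pairs, 1 was therefore present in the thresholded lists of both replicates.

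Among the H2A and H2B pairs, the summit between his-4 and his-3 had a signal value of 242 (rank 557) at chrV:16040609-16040739, with 140 in replicate 1 and 105 in replicate 2. The summit between his-62 and his-61 had 152 (rank 993) at chrIV:7486213-7486556, with 75.6 in replicate 1 and 70.3 in replicate 2. Both pairs were in both replicates' thresholded lists. The third pair, his-41 and his-35, whose genes have introns, had the weakest histone summit, 80.0 (rank 2115) at chrV:9545326-9545669. It reached neither replicate's thresholded list and stood in the ranked lists, at 39.6 in replicate 1 and 39.8 in replicate 2. That summit also lay 594 bp upstream of C50F4.6.

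The only H1 gene among the members, his-24, had a peak of 190 (rank 788) at chrX:14489916-14490259, with 105 in replicate 1 and 84.5 in replicate 2. Its summit lay 6 bp upstream of the 5′ end, the closest of the 10. The annotated 5′ end of his-24 lies before its first coding base, whereas that of most histone genes is the first coding base itself. Of the H3.3 genes, his-72 had a peak of 105 (rank 1538) at chrIII:12368995-12369338, with 41.8 in replicate 1, in the ranked list only, and 55.4 in replicate 2. The other H3.3 genes had no thresholded summit, and their highest ranked-list peaks were 53.8 for his-71, 46.5 for his-74, 34.9 for his-69 and 19.8 for his-70.

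**Figure D1:**
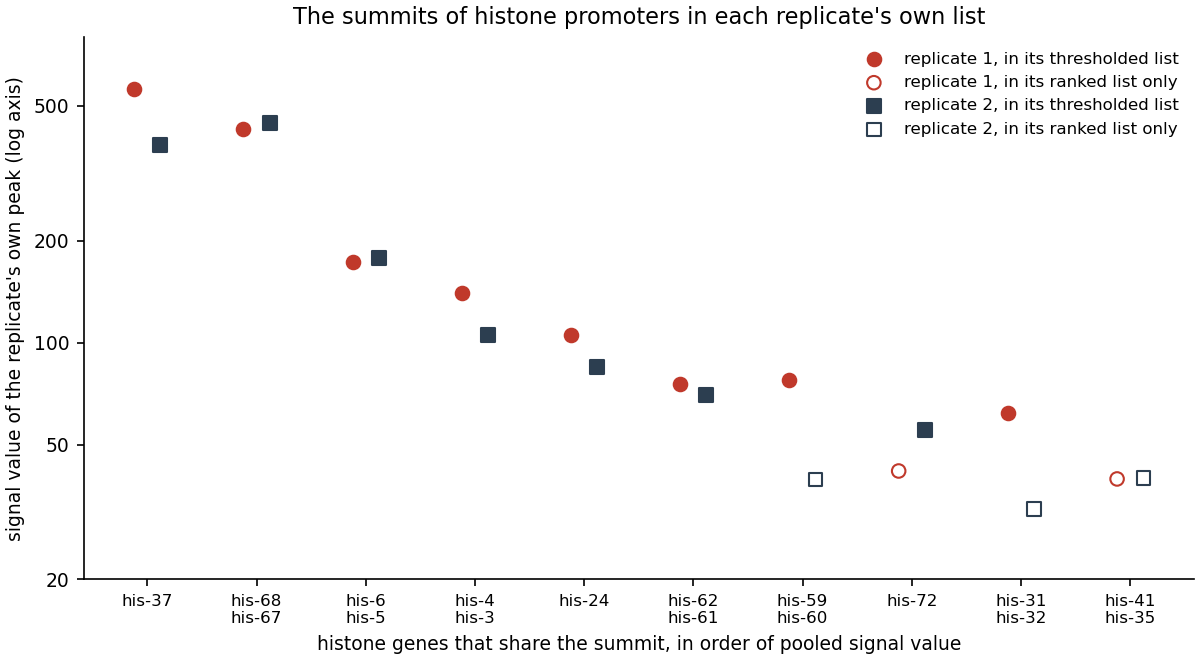
Signal value (log axis) of the 10 histone promoter summits in each replicate's own list, with circles for replicate 1 and squares for replicate 2; filled symbols passed that replicate's threshold and open symbols stood in its ranked list only. The 2 strongest summits lie at 382 to 560 in both replicates, and the open symbols lie between 32.3 and 41.8.

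Replicate 1's own thresholded list gave a promoter summit to 16 of the 72 histone genes (22.2%), against 6.64% of all genes. Replicate 2's gave one to 11 (15.3%), against 5.53% of all genes. Both lists gave one to 10 histone genes. Replicate 1 alone listed the H4 gene his-38 and the H3 gene his-40, at 51.8, which the pooled list does not hold. The conservative pooled list of the authors gave 19 histone genes (26.4%), against 7.96% of all genes. It held the same 10 summits with the same signal values and added the H3 gene his-63 and the H4 gene his-64. In each of these 4 lists the share of histone genes was above that of all genes, a description for which no test was made.

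The histone summits spanned much of the range of heights. Their median signal value was 171 (80.0 to 944, n = 10), against 142 for the 1327 other promoter summits (2.1 to 2739). They lay a median of 108 bp upstream of the nearest 5′ end (160 to 6 bp upstream), against 201 bp upstream for the other promoter summits. The annotated 5′ end is the first coding base in 65 of the 72 histone genes and in 23.7% of all genes, so the distances run from a start codon more often among histone genes, and the part of this in the difference was not tested. Of the 10 histone summits, 7 also lay between facing 5′ ends 236 to 368 bp apart, which bounds the distance to the nearer end. The part of that spacing was not tested either. The base composition within 100 bp of the summit had a median of 50.5% G and C (41.3 to 55.2) at histone summits, against 42.3% at the others.

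**Figure D2:**
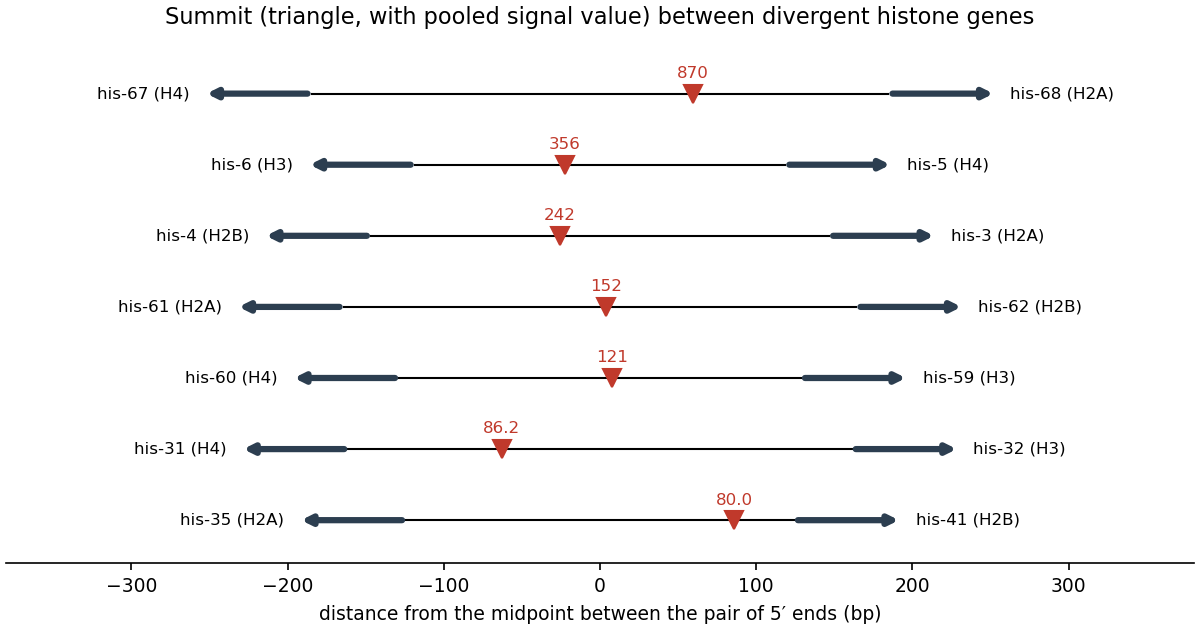
Positions of the 7 summits shared by divergent histone genes, as the distance in bp from the midpoint between the pair's 5′ ends; arrows show the direction of each gene (not its length) and triangles the summits with their pooled signal values. Every summit lies between the 5′ ends of its pair, and the heights run from 80.0 to 870.

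The 72 genes fell into 19 loci when genes within 5 kb of each other were joined, of which 14 held at least 2 genes and 5 held 1. A summit was found at 8 loci, 6 of several genes and 2 of 1 gene. The locus at chrIV:7485834-7488659 with his-61, his-62, his-60 and his-59 had all 4 of its genes served by 2 summits. The locus at chrV:9544659-9547607 with his-35, his-41 and his-37 had all 3 of its genes served by 2 summits, of 80.0 and 944. At chrV:16040144-16042831 the pair his-4 and his-3 had a summit of 242, while the H3 and H4 pair his-2 and his-1 beside it had none and a highest ranked-list peak of 88.4. At chrV:8532715-8536716, his-6 and his-5 had one among 5 genes, and at chrIV:8331044-8336340, his-31 and his-32 had one among 6.

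The 2 clusters with the most genes had no summit, the 13 genes of chrII:13817760-13828697 and the 8 genes of chrV:8889488-8898539. None was found either at the 6 genes of chrV:8847393-8854053 or at the 3 clusters of 4 genes on chromosome IV at chrIV:11324056-11326998, chrIV:11337853-11341703 and chrIV:11400415-11407427. Per chromosome, a summit was found for 2 of 2 histone genes on chromosome I, 0 of 14 on II, 1 of 3 on III, 6 of 22 on IV, 7 of 27 on V and 1 of 4 on X. Of all genes, 9.80% had one on chromosome I, 7.77% on II, 10.8% on III, 7.62% on IV, 6.49% on V and 8.06% on X.

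**Figure D3:**
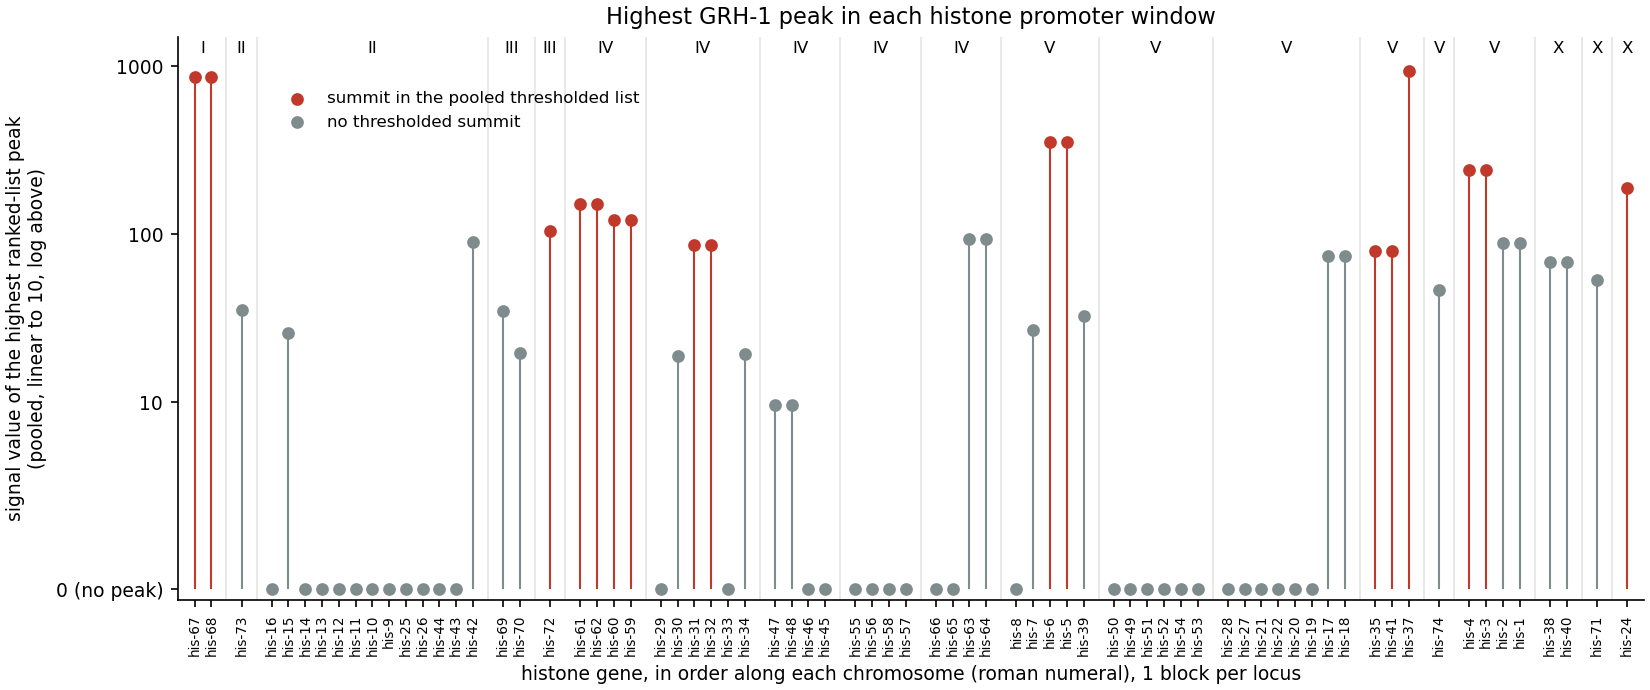
Signal value of the highest pooled ranked-list peak in the promoter window of each of the 72 histone genes (linear to 10, logarithmic above), in order along the chromosomes with 1 block per locus; red marks the 17 genes with a thresholded summit and grey the 55 without. The largest clusters, on II and V, consist mostly of genes at 0, which had no peak in the ranked list.

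The members without a thresholded summit divided into those with a weaker peak and those with no peak of any kind. In the pooled ranked list of 117774 peaks, 38 of the 72 histone genes had a peak summit in their window and 34 had none. Of all protein-coding genes, 18.8% had none. Of the 34, 33 had none in any of the 3 ranked lists. The median percentile of the histone genes' highest peak among all genes was 26.4, and yet 24 of the 72 were at or above the 90th percentile. The 21 genes with a ranked peak but no thresholded summit had pooled signal values of 9.87 to 93.4. The 17 genes with a thresholded summit ranged from the 91.9th to the 99.8th percentile.

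Just outside the limit, a −log10 IDR of 2, stood his-63 and his-64, an H3 and H4 pair, with a ranked-list peak of 93.4 and a −log10 IDR of 1.97. The main list left this peak out, but the authors' conservative list held it. Just inside stood his-41 and his-35, with a lower signal value of 80.0 and a −log10 IDR of 2.28. The replicates had his-63 and his-64 at 59.1 in replicate 1 and 41.0 in replicate 2. The H3 gene his-42, the last gene of the cluster on chromosome II, had a peak of 90.7 with 64.7 in replicate 1 and 37.2 in replicate 2, and a −log10 IDR of 0.102. The pair his-2 and his-1 had 88.4 with a −log10 IDR of 0.841, and his-38 and his-40 had 68.1 with a −log10 IDR of 1.2. Some histone genes without a summit therefore had a peak as high as the weakest that passed.

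Near-identical copies are the rule among histone genes, and how much of each window can be told apart from the rest of the genome was measured as the share of its 50-base words that occur once. The median share was 25.3% over the histone genes and 100% over all genes. Of the 19 histone genes with at least 90% of such words, 13 had a summit (68.4%, 46.0 to 84.6), against 8.45% of all genes in the same class. Of the 13 with 50 to 90%, 4 had one (30.8%, 12.7 to 57.6), against 6.80%. Of the 40 under 50%, none had one (0%, 0 to 8.76), against 1.90%. The lowest share in a gene with a summit was 67.2%, at his-5.

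The same classes differed in whether any ranked peak was listed. No peak was in the pooled ranked list for 0 of 19 histone genes with at least 90%, 1 of 13 with 50 to 90% and 33 of 40 under 50%. Among all genes the shares without a ranked peak were 17.9%, 15.2% and 63.5% in the same 3 classes. How the authors treated reads that match several places is not stated in the labels used here. Whether GRH-1 binds the repeated histone genes and cannot be seen there, or does not bind them, cannot be told apart from these lists.

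**Figure D4:**
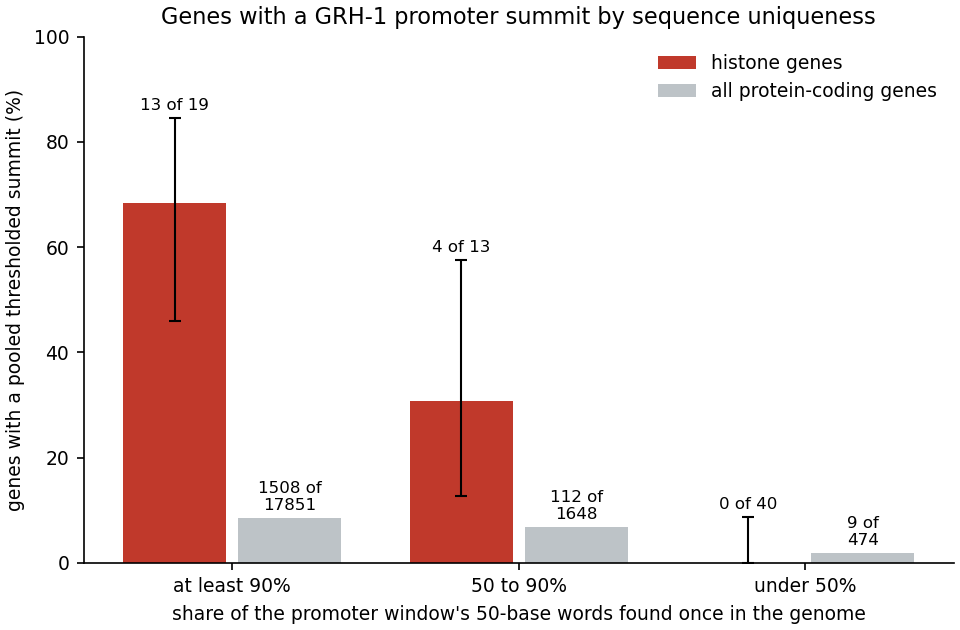
Share of genes with a pooled thresholded promoter summit (%) in 3 classes of sequence uniqueness, for histone genes (red, with 95% Wilson intervals) and all protein-coding genes (grey). The histone bars stand at 68.4%, 30.8% and 0%, against 8.45%, 6.80% and 1.90% for all genes.

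**Figure D5:**
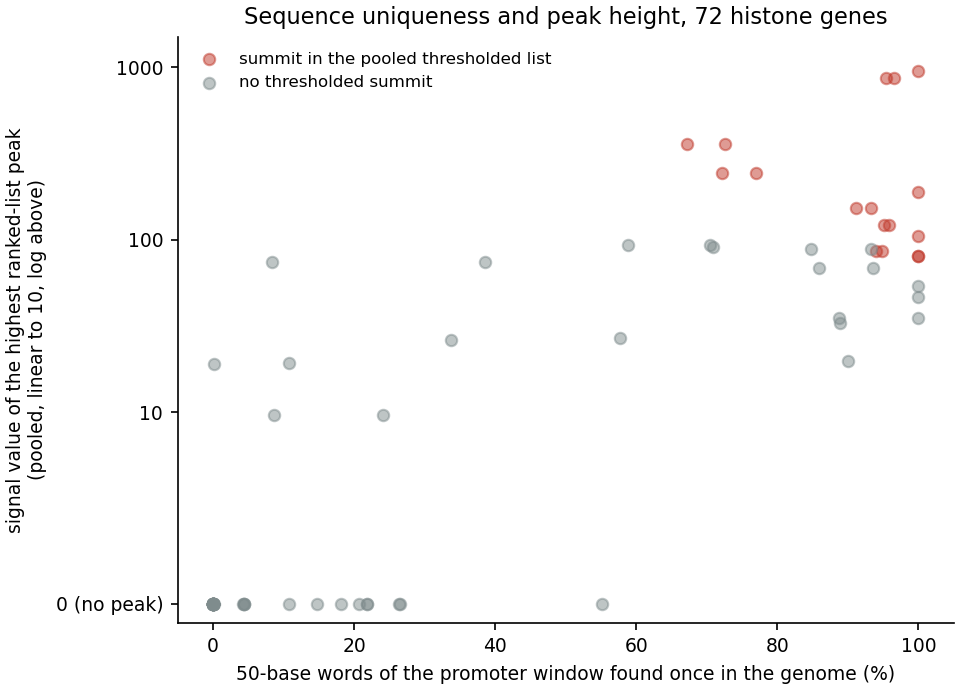
Signal value of the highest pooled ranked-list peak of each histone gene (linear to 10, logarithmic above) against the share of its window's 50-base words found once in the genome (%); red points had a thresholded summit, and points that coincide appear darker. All red points lie at 67.2% or higher, and most points under 50% lie at 0.

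The divergent pairs showed this sequence by sequence. There were 31 pairs, with 227 to 368 bp between their 5′ ends (median 258), and they had 21 distinct intergenic sequences. The 16 pairs whose whole intergenic sequence equals that of another pair had no summit, and 7 of the other 15 had one. Among those 15, the sequence of his-58 and his-57, without a summit, stands complete within the longer one of his-66 and his-65. Of the 11 pairs whose intergenic sequence was unique in at least 50% of its 50-base words, 7 had a summit and all had a ranked peak. Of the 20 pairs under 50%, none had a summit and 15 had no ranked peak. The 4 unique pairs without a summit were his-63 and his-64, his-8 and his-7, his-2 and his-1, and his-38 and his-40.

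Pairs of closely related sequence could be set side by side, in the lines printed above. The lines of his-51 and his-52 and of his-63 and his-64 must first be read on the other strand, as these pairs run the opposite way. The H3 and H4 pair his-17 and his-18 was 94.9% identical to his-6 and his-5 over the aligned intergenic sequence, with the marked words in the same order. It had a highest ranked-list peak of 74.0, with 39.6 in replicate 1 and 30.5 in replicate 2, against 356 at his-6 and his-5. Its intergenic sequence was unique in only 1.08% of its words, as it is 98.7% identical to that of his-50 and his-49. The pair his-2 and his-1 was 89.9% identical to his-6 and his-5, and 100% of its words were unique. It had 88.4 in the pooled ranked list, with 67.0 in replicate 1 and at most 25.8 in replicate 2. Its sequence lacks an exact octamer. The 4 copies of the his-51 and his-52 sequence were 88.7% identical to that of his-4 and his-3 (242), lack an exact octamer, had 0% unique words and no ranked peak. On chromosome IV, the sequence of his-63 and his-64 was 85.5% identical to that of his-60 and his-59 (121), with 96.1% of its words unique. It lacks an exact octamer and had a ranked-list peak of 93.4, above the 86.2 of his-31 and his-32, which hold the octamer.

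In the pooled list, gene structure gave another division. Of the 8 histone genes with an annotated intron, 5 had a summit (62.5%, 30.6 to 86.3), namely his-24, his-35, his-37, his-41 and his-72, and 3 had none (his-57, his-71 and his-74), against 8.18% of all genes with an intron. Of the 64 genes without an intron, 12 had a summit (18.8%, 11.1 to 30), against 7.57% of all genes without one. The division was weaker by replicate. Replicate 1's own list gave a summit to 2 of the 8 genes with an intron and 14 of the 64 without. Replicate 2's gave one to 3 of the 8 and 8 of the 64. The shared summit of his-35 and his-41 passed in neither replicate alone. A hairpin of the histone mRNA type, with a 6-bp stem beginning with GG and a loop of 4 bases within 100 bases after the stop codon, was found in 56 histone genes and in 67 of all genes. None of the 8 genes with an intron had the hairpin. A summit of the pooled list was found for 11 of the 56 genes with the hairpin (19.6%) and for 6 of the 16 without it (37.5%). Replicate 2's own list gave one to 7 of the 56 and 4 of the 16. Replicate 1's own list gave one to 13 of the 56 and 3 of the 16, so the order of the shares was reversed there. Of all genes, 19.4% of the 67 with the hairpin, most of them histone genes, and 8.12% of those without it had a summit. The median unique share was 100% in genes with an intron and 21.3% in genes without, so structure and uniqueness moved together, and their parts were not tested.

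None of the 10 histone summits had a Grainyhead-type word within 100 bp, either the palindrome AACCGGTT, the variants AACTGGTT or AACCAGTT, or the core ACCGGT. Of the other 1327 promoter summits, 9.27% had at least 1 of them. In the promoters, taken as 250 bases before to 50 after the 5′ end, 1 of 72 histone genes had such a word, against 3.58% of all genes. It was 1 of the 17 genes with a summit, against 0 of the 55 without. An absent match says only that these letters are not in the window.

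Of 5 further words, CTCCNCC and TATAAA stood more often at the histone summits than at the others. CTCCNCC stood within 100 bp of 8 of 10 histone summits (80.0%), against 16% of the other promoter summits. Within 50 bp it stood at 4 of 10, against 10.2%, and within 200 bp at 10 of 10, against 23.3%. TATAAA stood within 100 bp of 6 of 10 (60.0%), against 12.1%. GAGAGA stood at 4 of 10 (40.0%), against 32.4%. The E-box CACGTG stood at 1 of 10, that of his-72, against 9.50%. AGACGCAG stood at 1 of 10, that of his-68 and his-67, against 12.5%. Both strands were searched, and ACCGGT is contained in AACCGGTT, so their matches overlap.

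CTCCNCC and TATAAA belonged to histone promoters with and without a summit alike. CTCCNCC was in the promoters of 17 of 17 histone genes with a summit and 49 of 55 without, together 66 of 72 (91.7%), against 13.7% of all genes. TATAAA was in 12 of 17 and 35 of 55, together 47 of 72 (65.3%), against 38.0% of all genes.

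The octamer GGACACAT was picked after the sequences were compared, as the shared 8-base word found at most histone summits, so its counts are a description. It stood in 13 of the 21 distinct intergenic sequences, in 20 of the 31 pairs and in 6 of the 7 pairs with a summit. In the promoters it was present for 14 of 17 histone genes with a summit and 29 of 55 without, and for 0.786% of all genes. Some pairs of mostly unique intergenic sequence had neither a summit nor an exact octamer. They were his-63 and his-64, his-8 and his-7, his-2 and his-1, and his-38 and his-40. The pair his-41 and his-35 had a summit without the octamer. Within 100 bp of the summit it stood at 8 of the 10 histone summits, against 9 of the 1327 other promoter summits (0.678%).

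The octamer lay close to most of these summits. The distance was 9 bp at his-4 and his-3, 12 bp at his-68 and his-67, 17 bp at his-37, 21 bp at his-31 and his-32 and 23 bp at his-59 and his-60. It was 38 bp at his-6 and his-5, 51 bp at his-24 and 64 bp at his-62 and his-61. The summits of his-72 and of his-41 and his-35 had none. Their signal values were 105 for his-72 and 80.0 for his-41 and his-35, and the weakest summit with the octamer, that of his-31 and his-32, had 86.2.

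Genes for other histones and for proteins that act on histones were counted in the same way. Of 12 other linker and variant histone genes, 5 had a summit (41.7%, 19.3 to 68.0), against 8.16% of all genes. The highest was that of htz-1, which encodes the variant H2A.Z, at 554, with 312 in replicate 1 and 239 in replicate 2. It shared its summit with wapl-1 and had the core ACCGGT within 100 bp. By the nearest 5′ end the summit was not assigned to htz-1. The linker histone genes hil-7, hil-3 and hil-2 had 148, 130 and 96.8, of which hil-2 passed in neither replicate alone. The gene for the centromeric H3, hcp-3, had 91.0 and passed in replicate 2 at 52.7. It had no promoter summit in replicate 1's thresholded list or in the conservative list, which gave one to 4 of these 12 genes.

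Of 21 genes for histone mRNA processing, chaperones and assembly, 6 had a summit (28.6%, 13.8 to 50), against 8.16% of all genes. The highest was that of lin-53, whose product is a histone-binding WD-repeat protein, at 616, with 335 in replicate 1 and 294 in replicate 2. This summit was shared with nra-2, and by the nearest 5′ end it was not assigned to lin-53. The gene unc-85, for an Asf1-type chaperone of H3 and H4, had 299, with 168 in replicate 1 and 125 in replicate 2. Next came nasp-2, a NASP-type chaperone gene, at 279, and emb-5, which encodes an Spt6-type elongation factor, at 146. The summit of nasp-2 was shared with C50B6.3. With a window of 500 bp upstream, and by the nearest 5′ end, nasp-2 did not keep it. The summit of emb-5 passed in replicate 2 only, at 78.6.

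Of 21 genes for histone acetyltransferases and deacetylases, 4 had one (19.0%, 7.67 to 40.0), against 8.16% of all genes. The gene cbp-1, for a CBP/p300-type acetyltransferase, had 822, with 423 in replicate 1 and 393 in replicate 2. With a window of 500 bp upstream cbp-1 did not keep its summit. The acetyltransferase gene hat-1 had 527, and the deacetylase genes hda-6 and hda-11 had 205 and 149. All 4 passed in both replicates. Of 31 genes for histone methyltransferases and demethylases, 7 had one (22.6%, 11.4 to 39.8), against the same 8.16%. The highest was that of set-16, for an MLL-type methyltransferase, at 975, with 537 in replicate 1 and 440 in replicate 2. The methyltransferase gene set-4 had 304, ash-2, for a subunit of methyltransferase complexes, had 224, and the demethylase gene jmjd-1.2 had 220. The summits of set-16, ash-2 and jmjd-1.2 were shared with drr-2, nosr-1 and F29B9.11. By the nearest 5′ end jmjd-1.2 did not keep its summit. The median unique share was 100% in each of these 4 lists.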

How the data were processed

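Peak lists were deposited for 2 biological replicates of 1 group, on build ce11 per the submitters' processing notes. No source used here names the aligner or peak caller. The control library was not used here. Peaks were called by the authors per replicate and on both replicates pooled, so the 3 kinds of list share data. The signal value per peak is the authors' score, and the −log10 of the IDR was deposited in the ranked lists. All peaks of the main list had a −log10 IDR of 2 or more, whereas the conservative list also held the peak of his-63 and his-64, at 1.97. A further 49 pooled peaks past that limit were left out of the thresholded list, none of them in a histone window.

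Genes came from Ensembl release 115 and symbols from RefSeq through the WormBase gene ID (72 of 72 matched, of which 22 differ, since Ensembl gives identical copies 1 name). RefSeq chromosome lengths equal those of the build. Python 3.11.15, numpy 2.4.6, pandas 2.3.3, SciPy 1.17.1, matplotlib 3.10.9 and Biopython 1.88 were used, and the counting steps were tested on simulated data. Identity is from a global alignment of the intergenic sequences, gaps counted, with pairs that run the opposite way compared on the other strand. The members, lists and motifs were chosen with earlier results of these data known. Named were all histone genes with a summit, genes sharing it, the 3 highest histone genes without one and up to 4 genes per further list. Genes sharing a summit with those of a further list, and other members, were named after their values were seen. Of the acetyltransferase list, mys-3 was not matched. Alternatives were the conservative list, each replicate, a stricter threshold, merged regions, other windows, other cluster gaps, nearest-gene assignment and other word lengths.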

Additional observations from a re-analysis of the deposited data

How the results depend on the processing

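The values compared were single counts, shares and percentiles, which have no sign, so only their size was compared. The order of a pair of groups was not part of this comparison and can change. For genes with and without the hairpin it was reversed in replicate 1's own list (13 of 56 and 3 of 16). Of the main results, 57 values under alternatives stayed close to the reported ones (counts within 1.5 times, the median percentile within 1 SD between the replicates' values) and 12 did not. With the 1235 highest-scoring pooled peaks, 10 histone genes (13.9%, against 5.04% of all genes) and 3 other linker and variant histone genes had a summit, and 6 histone summits were left. Assigning a summit to the nearest 5′ end gave 10 histone genes (13.9%), and CTCCNCC within 50 bp was found at 4 summits. Using 1 replicate's list in place of the pool gave 11 to 16 histone genes, 3 to 4 linker and variant histones, 3 to 5 chaperone genes and 4 to 7 methylation genes. The median percentile of the highest ranked peak, 26.4, was 39.2 with a window of 500 bp upstream, 47.0 with 2000 bp and 27.1 to 31.3 by replicate. The 36-base and 100-base words were chosen after the data were seen: with 36-base words 10 histone genes were at least 90% unique, where 50-base words gave 19, and the 40 genes under 50% still had no summit with either length. No paired analysis was possible because there is 1 group. The unknown read depth limits all statements on genes without a peak.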

Other observations

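A pair of thresholded summits lay beside histone genes outside their promoter windows. A peak of signal value 95.8 at chrV:12659421-12659764 had its summit 737 bp from the 5′ end of the H3.3 gene his-74, in the promoter window of ccch-3. A peak of 93.7 at chrX:14491119-14491462 had its summit 1197 bp from the 5′ end of his-24, past the far end of that gene.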
